A study of Mus musculus with 6 samples.

Results

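The Siglec family is a group of sialic acid-binding receptors of the immunoglobulin superfamily, and 7 mouse members were followed here: Siglec1, Cd33, Siglece, Siglecf, Siglecg, Siglech and Cd22. The members were picked by symbol from the gene annotation, with earlier results of these data known, as were the gene lists used below. All 7 were found among the 55487 genes of the deposited count table. TpMo-derived macrophages (3 libraries) were compared with Ly6Chi-derived macrophages (3 libraries). Replicates are numbered within each group by their order in the deposited counts, since the labels give no replicate numbers. Both kinds of mouse macrophage were grown for 7 days with CSF-1, the macrophage growth factor, from cells sorted out of bone marrow: TpMos for one group and mature Ly6Chi monocytes for the other. The labels give no strain, genotype, age or sex, no CSF-1 concentration is given for any library, and no treatment other than the culture is named.

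Siglecs read sialic acids, the sugars that cap many glycoproteins and glycolipids at the cell surface. Most of them, including the proteins of Siglece, Siglecf, Siglecg and Cd22, carry inhibitory tyrosine motifs in their tails that recruit the phosphatase SHP-1 and dampen activating signals. Siglec1 (sialoadhesin, CD169) has a long extracellular part and no inhibitory motif, and is known as an adhesion receptor of tissue macrophages. The Siglech protein signals through the adaptor DAP12 and marks plasmacytoid dendritic cells, while Cd22 and Siglecg are best known from B cells, Siglecf from eosinophils and alveolar macrophages, Siglece from neutrophils and macrophages, and Cd33 from myeloid cells.

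The counts assigned to genes totalled 33042094, 27154105 and 23765773 in TpMo-derived libraries, against 26804286, 27051518 and 31820999 in Ly6Chi-derived libraries. A floor of 3 counts per library corresponded to 0.0908 to 0.126 CPM (counts per 1000000 counts) before scaling, and such floors cover counting error only. All other CPM values were scaled by TMM. All 7 macrophage markers checked (Adgre1, Csf1r, Cd68, Mertk, Fcgr1, Itgam and Lyz2) passed the filter on low counts, and their summed level was 34713 to 37270 CPM in TpMo-derived libraries, against 28599 to 31597 CPM in Ly6Chi-derived libraries, most of it Lyz2. Of the 7, Fcgr1 (log2 fold change 1.96), Adgre1 (1.20) and Csf1r (0.51) were called higher and Itgam (-0.31) lower in TpMo-derived cells by the test described next. Of 13140 genes tested with edgeR's quasi-likelihood test, 1620 passed a Benjamini-Hochberg adjusted p of 0.05, which is 12.3% of them. Higher genes made up 6.54% and lower genes 5.79%. Nothing in the labels says that the libraries of a group came from separate animals or cultures, so the p-values measure the spread between these libraries, which may be technical. The RNA is bulk RNA, in which fewer cells of a type and less RNA per cell cannot be told apart.

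Cd33, Siglece, Siglecf and Siglecg lie within one stretch of chromosome 7, with other genes between them (GRCm38, 43351341 to 43660161, 309 kb; the cluster hereafter), Cd22 and Siglech lie elsewhere on chromosome 7, and Siglec1 lies alone on chromosome 2. Upstream sequences in RefSeq (GRCm38.p6) were matched for 6 of the 7 members, Siglec1 being the exception. The 250 bases before the RefSeq start of Cd33, the member with the lowest log2 fold change among the 5 tested, shared an unbroken run of 16 bases with those of Siglecf in the same cluster. Among the 15 pairs of members, the other pairs shared runs of 7 to 10 bases, and none of the other promoters among the 27025 in the table held the 16-base run. Both 60-base windows are shown because they carry this shared run, which is in capitals:
Cd33, chr7:43533302-43533361, minus strand, bases -190 to -131: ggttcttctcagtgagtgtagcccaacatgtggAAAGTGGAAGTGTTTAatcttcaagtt
Siglecf, chr7:43351281-43351340, plus strand, bases -60 to -1: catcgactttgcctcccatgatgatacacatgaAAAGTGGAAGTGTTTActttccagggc
The run spans bases -157 to -142 of Cd33 and bases -27 to -12 of Siglecf, counted back from each gene's RefSeq start. Set side by side in that register, the windows were identical at 29 of 60 positions (48.3%). The 16 bases of the run are among these 29 by the choice of register, so the percentage does not measure likeness outside the run. The RefSeq start of Cd33 lies inside the longer gene that GENCODE gives, so other upstream sequence may apply to its longer transcripts.

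Several short motifs were searched on both strands of the same 250 bases. The ETS core GGAAGT, a short form of the letters bound by ETS factors such as PU.1, occurs inside the shared run at base -152 of Cd33 and base -22 of Siglecf, and once more on the minus strand at base -156 of Siglech. It is held by 20.0% of all promoters in the table. The longer PU.1 core GAGGAAGT (2.44% of all promoters), which contains the ETS core, and the core of the interferon-stimulated response element (3.04%) were not found in the 6 members' windows, nor were the AP-1 letters TGANTCA (6.87%) or the NF-kB motif (1.17%). The E-box CACGTG, held by 6.05% of promoters, was found in Siglech. These matches describe letters in the window and are not evidence of binding.

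The 3 members with the clearest signal split in direction: Siglec1 and Siglece rose in TpMo-derived macrophages relative to Ly6Chi-derived ones, whereas Cd33 fell. Siglecf and Cd22 overlapped between the groups and did not pass the test, Siglecg had counts in only 2 libraries, and Siglech had none. Of the 7 members, 5 passed the filter on low counts, and 3 of these 5 were called, 2 higher and 1 lower, against a background of 12.3% of all genes. In the same 3 members the libraries of the groups did not overlap, a pattern seen in 30.5% of the genes tested.

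Siglec1 (ENSMUSG00000027322.11, chromosome 2, 131069220 to 131086765, minus strand) had 110, 72.8 and 106 CPM in TpMo-derived libraries, against 20.99, 18.7 and 16.2 CPM in Ly6Chi-derived libraries. All 3 TpMo-derived libraries stood well above all 3 Ly6Chi-derived ones, and within the TpMo-derived group replicate 2 was the lowest. The means were 96.3 ± 20.4 CPM in TpMo-derived and 18.6 ± 2.38 CPM in Ly6Chi-derived libraries (SD, n = 3 each), a level 5.17-fold higher in TpMo-derived cells. The fitted log2 fold change was 2.37 ± 0.18 (SE; 95% interval 1.97 to 2.77; edgeR quasi-likelihood test, adjusted p = 3.25e-05), which ranked 52 of 13140 genes by p-value.

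Siglece (ENSMUSG00000030474.9, chromosome 7, 43651070 to 43660161, minus strand), which encodes an inhibitory Siglec of myeloid cells, had 19.8, 11.2 and 17.1 CPM in TpMo-derived libraries, against 3.92, 3.59 and 5.66 CPM in Ly6Chi-derived libraries. The groups did not overlap, and replicate 2 was again the lowest of the TpMo-derived libraries. It averaged 16.0 ± 4.35 CPM in TpMo-derived and 4.39 ± 1.11 CPM in Ly6Chi-derived libraries (SD, n = 3 each), a level 3.64-fold higher in TpMo-derived cells, with a log2 fold change of 1.87 ± 0.30 (SE; 95% interval 1.19 to 2.54; edgeR adjusted p = 0.00294).

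Cd33 (ENSMUSG00000004609.11, chromosome 7, 43524216 to 43544428, minus strand), whose mouse protein differs from its human namesake in the signalling tail, had 5.13, 7.91 and 4.30 CPM in TpMo-derived libraries, against 58.0, 65.0 and 63.6 CPM in Ly6Chi-derived libraries. Every Ly6Chi-derived library was far above every TpMo-derived one, and replicate 2, lowest of the TpMo-derived group for Siglec1 and Siglece, was its highest for Cd33. Cd33 averaged 5.78 ± 1.89 CPM in TpMo-derived and 62.2 ± 3.69 CPM in Ly6Chi-derived libraries (SD, n = 3 each), which is 10.7-fold higher in Ly6Chi-derived cells. The log2 fold change was -3.43 ± 0.23 (SE; 95% interval -3.94 to -2.92; edgeR adjusted p = 1.78e-05), ranked 26 of 13140 genes by p-value. An exact two-sided permutation test over the libraries gave p = 0.1 for each of Siglec1, Siglece and Cd33, the smallest p that 3 against 3 libraries allow.

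**Figure D1:**
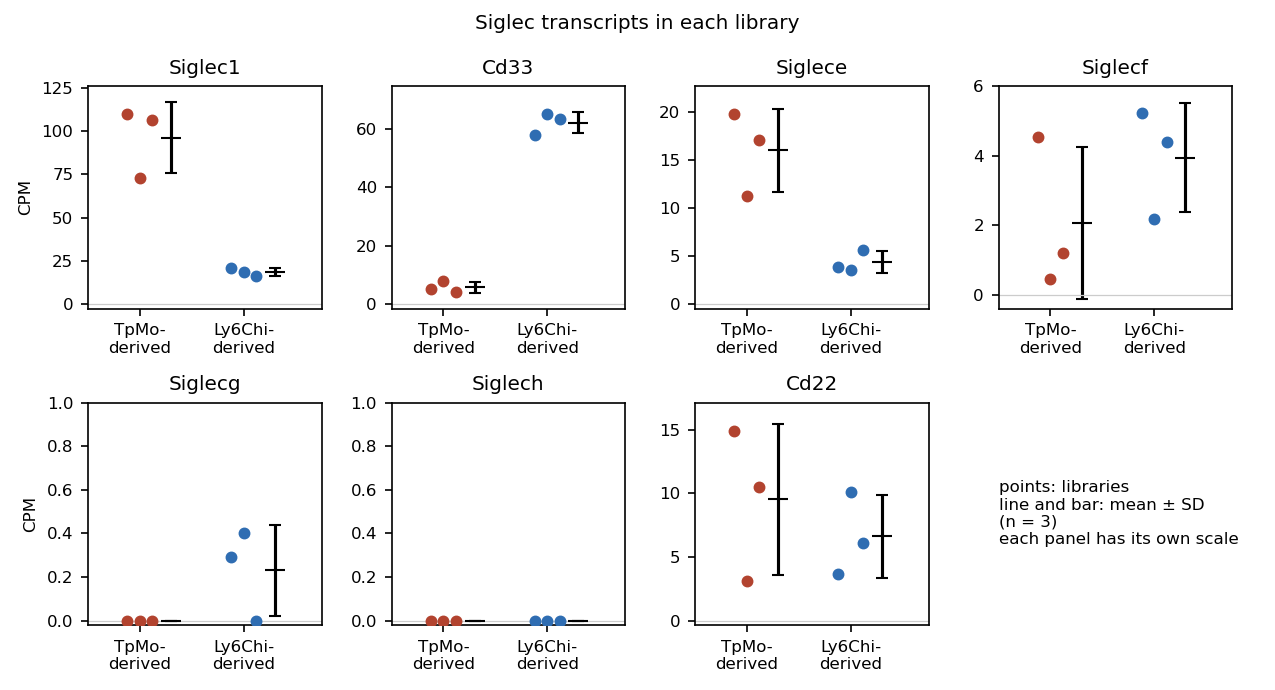
Level of each Siglec gene in CPM (vertical axis, a scale of its own in each panel) in the 3 TpMo-derived and 3 Ly6Chi-derived libraries (points), with the mean and SD of each group beside them. Siglec1 and Siglece are higher and Cd33 is lower in all 3 TpMo-derived libraries, the groups overlap for Siglecf and Cd22, and Siglech is at 0 throughout.

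Siglecf (ENSMUSG00000039013.16, chromosome 7, 43351341 to 43359531, plus strand), the inhibitory Siglec of eosinophils and alveolar macrophages, had 4.54, 0.446 and 1.22 CPM in TpMo-derived libraries, against 5.23, 2.20 and 4.41 CPM in Ly6Chi-derived libraries. The groups overlapped through TpMo-derived replicate 1, whose value lay among those of the Ly6Chi-derived libraries. The log2 fold change was -0.92 ± 0.74 (SE; 95% interval -2.58 to 0.73; edgeR adjusted p = 0.526), and without TpMo-derived replicate 1 it was -2.25 (adjusted p = 0.0811). Both no difference and a difference of several fold thus lie within the interval.

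Among 7 eosinophil markers, Epx, Prg3, Il5ra and Ear6 were at 0 in all 6 libraries, while the chemokine receptor gene Ccr3 rose in TpMo-derived cells. The summed level of the list was 58.2 to 74.6 CPM in TpMo-derived libraries, against 13.5 to 17.9 CPM in Ly6Chi-derived libraries, nearly all of it Ccr3. Of 8 alveolar macrophage markers, Car4, Ear1, Ear2, Krt79 and Krt19 were at 0 in every library, whereas the scavenger receptor gene Marco and the transcription factor gene Pparg rose in TpMo-derived cells. That list summed to 117 to 183 CPM in TpMo-derived libraries, against 32.1 to 40.9 CPM in Ly6Chi-derived libraries. Both marker sums were higher in TpMo-derived libraries, while Siglecf averaged 2.07 ± 2.18 CPM there and 3.95 ± 1.57 CPM in Ly6Chi-derived libraries (SD, n = 3 each).

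Cd22 (ENSMUSG00000030577.14, chromosome 7, 30865402 to 30880342, minus strand), the B cell co-receptor, had 14.9, 3.12 and 10.5 CPM in TpMo-derived libraries, against 3.67, 10.1 and 6.12 CPM in Ly6Chi-derived libraries. The spread within each group was as wide as the distance between them, with TpMo-derived replicate 2 the lowest of the 6 libraries and TpMo-derived replicate 1 the highest. The log2 fold change was 0.52 ± 0.53 (SE; 95% interval -0.66 to 1.70; edgeR adjusted p = 0.635). Of 11 B cell markers, Cd79a, Pax5, Ebf1, Vpreb3 and Igkc were at 0 in all 6 libraries. The list summed to 135 to 198 CPM in TpMo-derived libraries and 172 to 195 CPM in Ly6Chi-derived libraries, of which Blnk, an adaptor gene, gave 128 to 184 CPM in TpMo-derived and 170 to 187 CPM in Ly6Chi-derived libraries. Ighm, an immunoglobulin heavy chain gene, had 9.76, 5.12 and 4.77 CPM in TpMo-derived libraries, against 0.399, 1.46 and 3.61 CPM in Ly6Chi-derived libraries. Its groups did not overlap, but it was not called (log2 fold change 1.84 ± 0.67 SE, edgeR adjusted p = 0.113), nor were Cd79b (0.64) and Blnk (-0.12), the other 2 of the 3 B cell markers tested.

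Siglecg (ENSMUSG00000030468.12, chromosome 7, 43408204 to 43418358, plus strand) had 0 counts in each of the 3 TpMo-derived libraries, against 8, 11 and 0 counts in the Ly6Chi-derived libraries. It was too low for the filter, and a fit without the filter gave an unadjusted p of 0.0472 and an edgeR adjusted p of 0.263. Siglech (ENSMUSG00000051504.18, chromosome 7, 55768178 to 55778925, plus strand) had 0 counts in all 6 libraries. Of 12 plasmacytoid dendritic cell markers, Ly6d, Klk1, Pacsin1, Spib, Dntt and Ptcra were likewise at 0 throughout. Their list summed to 66.3 to 95.7 CPM in TpMo-derived libraries and 55.9 to 66.1 CPM in Ly6Chi-derived libraries, mostly Tcf4 and Il3ra, and none of its 4 tested genes was called.

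For Siglece, which neutrophils also express, 11 neutrophil markers were read as well. None passed the filter, and Ly6g, Mpo, Prtn3, Ctsg and Retnlg were at 0 in all libraries. The list summed to 1.11 to 2.75 CPM in TpMo-derived libraries, against 0.218 to 1.49 CPM in Ly6Chi-derived libraries. Microglia markers summed to 211 to 242 CPM in TpMo-derived libraries and 264 to 280 CPM in Ly6Chi-derived libraries. Of the 5 microglia markers tested, Tmem119 fell in TpMo-derived cells and the other 4 were not called, among them Gpr34 with a log2 fold change of 1.17 and Olfml3 with 0.11. Of 7 mast cell and basophil markers 6 were at 0 throughout, as were 7 of 8 T and NK cell markers. The part of the marker differences in the Siglec results was not tested.

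Levels of different genes were compared per length, as CPM per kilobase of exon (CPM/kb). In TpMo-derived libraries the order was Siglec1 (13.5 ± 2.85 CPM/kb), Siglece (8.67 ± 2.35), Cd22 (1.89 ± 1.18), Cd33 (0.743 ± 0.243) and Siglecf (0.741 ± 0.781; SD, n = 3 each). Siglec1 and Siglece overlapped in range but kept their order in each of the 3 libraries, and the lower 3 did not differ beyond their spread. In Ly6Chi-derived libraries the order was Cd33 (8.004 ± 0.474 CPM/kb), Siglec1 (2.61 ± 0.333), Siglece (2.37 ± 0.601), Siglecf (1.41 ± 0.563) and Cd22 (1.32 ± 0.648). There Cd33 stood above all others in every library, while Siglec1 overlapped with Siglece, and Siglecf with Cd22. Cd22 also overlapped with Siglece, at 2.01 against 1.94 CPM/kb in Ly6Chi-derived replicate 2.

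The make-up of the family was read from each member's share of the summed level. The 7 members summed to 31.3, 18.1 and 27.2 CPM/kb in TpMo-derived libraries, against 15.2, 15.8 and 16.3 CPM/kb in Ly6Chi-derived libraries. Siglec1 made up 53.4 ± 3.85% of the sum in TpMo-derived libraries and 16.6 ± 2.71% in Ly6Chi-derived libraries (SD, n = 3 each). Siglece gave 33.9 ± 0.255% in TpMo-derived and 15 ± 3.37% in Ly6Chi-derived libraries, and Cd33 gave 3.26 ± 2.05% in TpMo-derived and 50.8 ± 1.95% in Ly6Chi-derived libraries. TpMo-derived replicate 2 had the lowest sum of its group, yet its Siglece share of 33.7% lay beside the 34.2% and 33.9% of replicates 1 and 3.

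The ratio of Siglec1 to Cd33 per kilobase was 23.3, 10.0 and 26.9 in TpMo-derived libraries, against 0.394, 0.313 and 0.278 in Ly6Chi-derived libraries. Every TpMo-derived library thus held more Siglec1 than Cd33, and every Ly6Chi-derived library held more Cd33 than Siglec1. The ratio of Siglec1 to Siglece, the pair that rose, was 1.44, 1.68 and 1.61 in TpMo-derived libraries and 1.39, 1.35 and 0.742 in Ly6Chi-derived libraries. Ranked by CPM/kb among all tested genes, Siglec1 stood at percentile 77.1 in TpMo-derived and 41.4 in Ly6Chi-derived libraries, Siglece at 67.6 in TpMo-derived and 39.3 in Ly6Chi-derived libraries, and Cd33 at 19.8 in TpMo-derived and 65.8 in Ly6Chi-derived libraries.

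**Figure D2:**
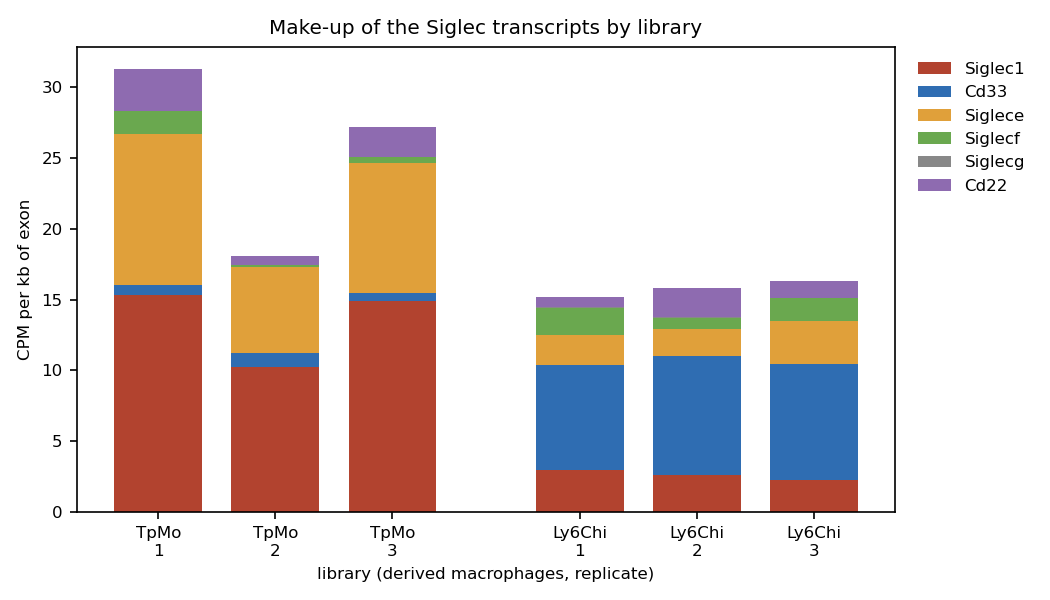
Siglec transcripts per kilobase in each library, TpMo-derived libraries left of Ly6Chi-derived ones, with each gene in its own colour. Siglec1 and Siglece fill most of the TpMo-derived libraries (53.4% and 33.9% on average), and Cd33 fills 50.8% of the sum in Ly6Chi-derived libraries.

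Of the remaining mouse Siglec genes, Mag, the myelin-associated Siglec of glia, and Siglec15, known from osteoclasts, were in the table. The symbols Siglec5 and Siglecl1 were also looked for and not found, and whether either names a gene listed under another symbol was not checked. Mag averaged 5.79 ± 0.716 CPM in TpMo-derived and 4.29 ± 1.68 CPM in Ly6Chi-derived libraries (SD, n = 3 each), with a log2 fold change of 0.43 (95% interval -0.37 to 1.23; edgeR adjusted p = 0.543). Siglec15 had 0, 2 and 2 counts in TpMo-derived libraries and 0, 2 and 0 counts in Ly6Chi-derived libraries, at or under the floor of 3.

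Genes that carry or cut Siglec signals were called at a share near that of all genes. Of 17 adaptors, kinases and phosphatases, all of them tested, 2 were higher in TpMo-derived cells and none was lower, where 12.3% of all genes were called, with a median log2 fold change of 0.06 against 0.01 over all genes. Ptpn6, which encodes the phosphatase SHP-1 that inhibitory Siglecs recruit, had 471, 527 and 502 CPM in TpMo-derived libraries, against 309, 311 and 287 CPM in Ly6Chi-derived libraries. All TpMo-derived libraries lay above all Ly6Chi-derived ones, with a log2 fold change of 0.73 ± 0.07 (SE; edgeR adjusted p = 1.04e-04). Inpp5d, which encodes the lipid phosphatase SHIP1, stood at 359 ± 11.2 CPM in TpMo-derived and 362 ± 22.4 CPM in Ly6Chi-derived cells (log2 fold change -0.01, adjusted p = 0.952), and Tyrobp, which encodes DAP12, had a log2 fold change of 0.08 and was not called.

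Of 27 genes for sialic acid synthesis and sialyltransferases, 17 were tested, 3 were lower in TpMo-derived cells and none was higher, where 5.79% of all genes were lower and 6.54% higher. The median log2 fold change of the 17 was -0.22. St8sia4, which encodes a polysialyltransferase, had 24.5, 29.8 and 23.9 CPM in TpMo-derived libraries, against 58.0, 58.3 and 45.9 CPM in Ly6Chi-derived libraries. The groups did not overlap, with a log2 fold change of -1.05 ± 0.16 (SE; edgeR adjusted p = 0.00197). St3gal2, a sialyltransferase gene, averaged 8.37 ± 0.561 CPM in TpMo-derived and 16.5 ± 3.09 CPM in Ly6Chi-derived cells (log2 fold change -0.97 ± 0.23 SE, adjusted p = 0.0198). Nans, which encodes sialic acid synthase, averaged 47.6 ± 5.39 CPM in TpMo-derived and 67.9 ± 6.59 CPM in Ly6Chi-derived cells (log2 fold change -0.52 ± 0.13 SE, adjusted p = 0.0301).

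The calls of St3gal2 and Nans depended on single libraries. St3gal2 was no longer called when TpMo-derived replicate 1, TpMo-derived replicate 3, Ly6Chi-derived replicate 2 or Ly6Chi-derived replicate 3 was left out (edgeR adjusted p = 0.0539 to 0.0894). Nans was no longer called when replicate 1 or 3 of either group was left out (0.0660 to 0.113). The most abundant sialyltransferase genes were not called: St3gal5, which makes the ganglioside GM3, averaged 199.6 CPM in TpMo-derived and 164 CPM in Ly6Chi-derived cells (adjusted p = 0.148), and St6galnac4 averaged 108 CPM in TpMo-derived and 126 CPM in Ly6Chi-derived cells (adjusted p = 0.187).

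Of 9 genes for sialidases and sialic acid breakdown, 7 were tested, 1 was higher and 2 were lower in TpMo-derived cells (6.54% and 5.79% of all genes), with a median log2 fold change of -0.25. Ctsa, whose protein protects the lysosomal sialidase, averaged 1963 CPM in TpMo-derived and 2340 CPM in Ly6Chi-derived cells (log2 fold change -0.25, edgeR adjusted p = 0.0105). Renbp averaged 238 CPM in TpMo-derived and 287 CPM in Ly6Chi-derived cells (log2 fold change -0.27, adjusted p = 0.0287), and Npl, the lyase that splits free sialic acid, averaged 6.78 ± 0.697 CPM in TpMo-derived and 2.08 ± 1.25 CPM in Ly6Chi-derived cells (log2 fold change 1.70 ± 0.47 SE, adjusted p = 0.0402). Each of these calls ended when single libraries were left out. Ctsa was not called without replicate 3 of either group or Ly6Chi-derived replicate 2 (adjusted p = 0.0528 to 0.0565). Renbp was not called when any library except TpMo-derived replicate 1 was left out (0.0693 to 0.112), nor Npl when any library except Ly6Chi-derived replicate 1 was left out (0.0810 to 0.130).

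Glycoproteins known to carry Siglec ligands were lower in TpMo-derived cells in 4 of 6 tested genes and higher in none, where 5.79% of all genes were lower and 6.54% higher, with a median log2 fold change of -0.45. Cd24a, whose protein binds Siglec-G in mice, had 3.87, 3.42 and 2.43 CPM in TpMo-derived libraries, against 10.8, 13.4 and 14.2 CPM in Ly6Chi-derived libraries. These groups did not overlap (log2 fold change -1.98 ± 0.29 SE, edgeR adjusted p = 0.00152). Selplg, which encodes PSGL-1, averaged 261 ± 21.4 CPM in TpMo-derived and 382 ± 26.5 CPM in Ly6Chi-derived cells (log2 fold change -0.55 ± 0.08 SE, adjusted p = 0.00189).

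Ptprc, which encodes CD45, a ligand of CD22, averaged 449 ± 30.7 CPM in TpMo-derived and 577 ± 11.3 CPM in Ly6Chi-derived cells (log2 fold change -0.36 ± 0.07 SE, edgeR adjusted p = 0.00552). Spn, which encodes the sialylated mucin CD43, a known counter-receptor of Siglec1, averaged 2.45 ± 1.23 CPM in TpMo-derived and 8.31 ± 2.20 CPM in Ly6Chi-derived cells (log2 fold change -1.76 ± 0.42 SE, adjusted p = 0.0213). It was no longer called when replicate 1 or 3 of either group was left out (adjusted p = 0.0755 to 0.0905). Cd44 averaged 901 CPM in TpMo-derived and 975 CPM in Ly6Chi-derived cells and was not called (adjusted p = 0.280). When the change had to exceed 1.5-fold, 1 of the 12 calls in these lists remained, that of Cd24a.

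**Figure D3:**
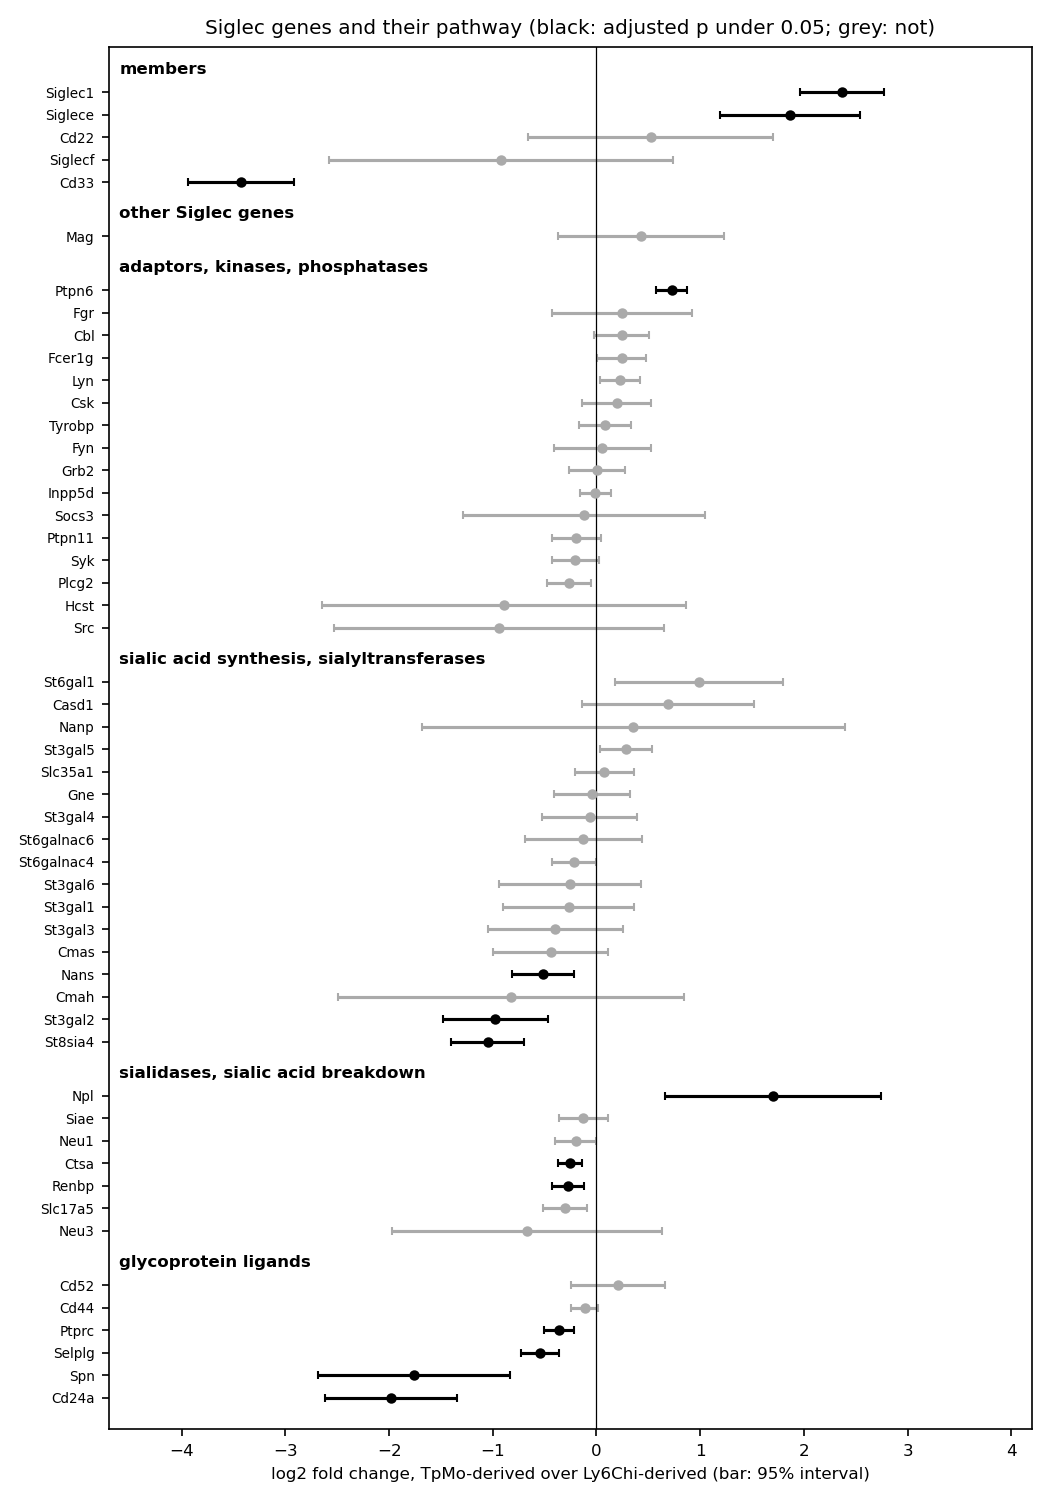
Log2 fold change (TpMo-derived over Ly6Chi-derived, horizontal axis) of each tested Siglec gene and of tested genes in the lists of signalling, sialic acid synthesis, sialic acid breakdown and ligands, with bars for the 95% interval and black points for adjusted p under 0.05. The called synthesis and ligand genes lie left of 0, and Ptpn6 among the signalling genes lies right of it.

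Neighbouring genes were read next, since 4 members share a cluster. Within 200 kb of the chromosome 7 cluster lay 44 genes, 28 of them without a count in the 6 libraries and 9 of them tested. Siglece was the 1 higher gene among these, and Cd33 and Vsig10l, an immunoglobulin-domain gene, were the 2 lower ones. These counts include the members themselves, and 12.3% of all genes tested were called. Zfp658 and Zfp719, which lie between Cd33 and Siglece, had log2 fold changes of 0.10 ± 0.55 and -0.01 ± 0.63 (SE) and were not called, with errors too wide to show that they did not differ. Vsig10l averaged 3.24 CPM in TpMo-derived and 7.14 CPM in Ly6Chi-derived cells (log2 fold change -1.14 ± 0.32 SE, edgeR adjusted p = 0.0467). It was not called without the filter (adjusted p = 0.0578) or when any library except TpMo-derived replicate 1 was left out (0.0972 to 0.160).

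Around Siglec1 on chromosome 2 lay 19 genes, Siglec1 included, and 14 of them were tested. Siglec1 was the 1 higher gene and Cdc25b and Ap5s1 were the 2 lower ones, where 12.3% of all genes tested were called. Cdc25b, a cell-cycle phosphatase gene, averaged 29.0 CPM in TpMo-derived and 59.0 CPM in Ly6Chi-derived cells (log2 fold change -1.03, edgeR adjusted p = 0.00772). Ap5s1, an adaptor-complex gene, averaged 15.2 CPM in TpMo-derived and 25.9 CPM in Ly6Chi-derived cells (log2 fold change -0.77, adjusted p = 0.0481) and was not called when any library except TpMo-derived replicate 2 was left out (0.0897 to 0.139). The nearest tested genes on either side, Adam33 and Hspa12b, were not called. Their log2 fold changes were 1.36 ± 0.57 (SE, edgeR adjusted p = 0.170) and -2.32 ± 1.04 (SE, adjusted p = 0.205), with wide errors. Hspa12b had only 74 counts over all libraries, averaging 0.142 CPM in TpMo-derived and 0.718 CPM in Ly6Chi-derived cells.

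**Figure D4:**
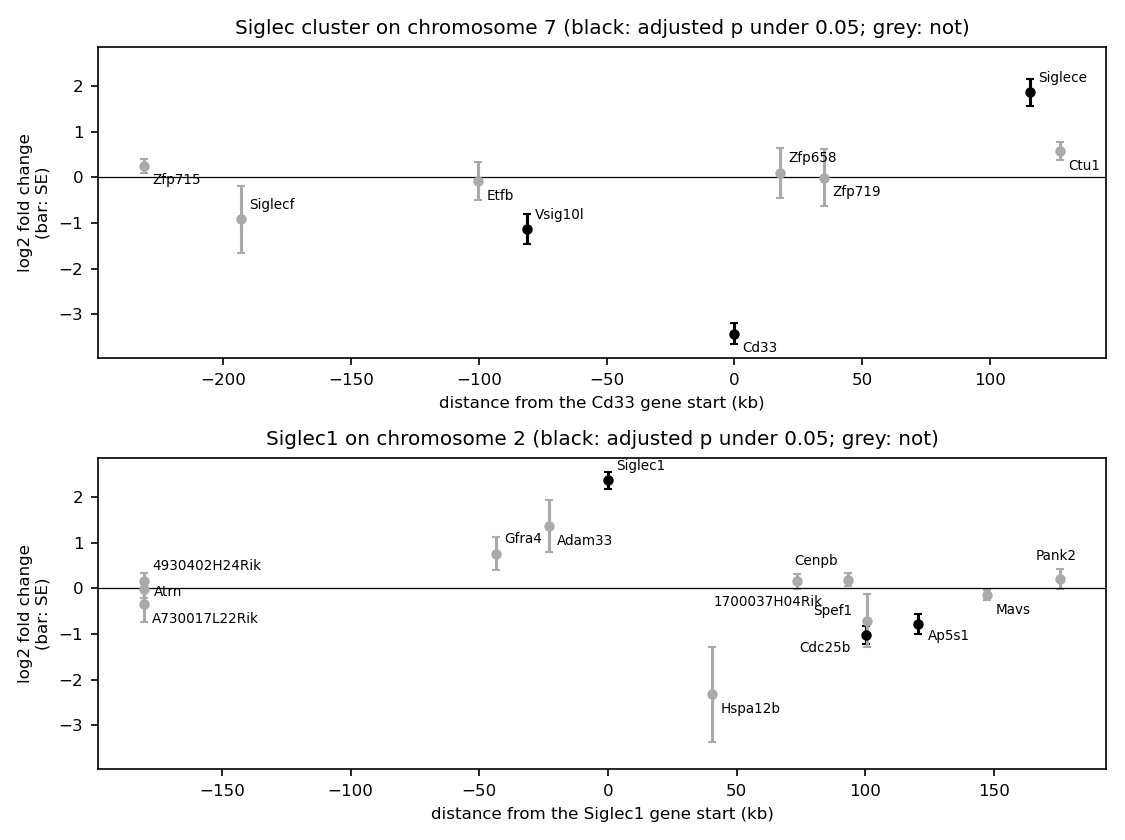
Log2 fold change (TpMo-derived over Ly6Chi-derived, vertical axis) of tested genes by their distance in kb from the start of Cd33 (upper panel) and of Siglec1 (lower panel), with bars for the SE and black points for adjusted p under 0.05. In the upper panel Cd33 at -3.43 and Siglece at 1.87 have Zfp658 and Zfp719 near 0, with wide bars, between them.

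Genes whose pattern over the 6 libraries was most like that of a called member were found by the root mean square difference of mean-centred log2 CPM among 8869 genes, so that a smaller value means a closer match. Closest to Siglec1 were Myo10 (0.17), which encodes an unconventional myosin, H2-T24 (0.18), a class I-like gene whose shared sequence with related genes was not measured, and Usp18 (0.19), which encodes the protease that removes ISG15. Closest to Cd33 were Amz1 (0.23), which encodes a metallopeptidase, Itgax (0.24), which encodes the integrin CD11c, and Cd34 (0.28), which encodes a surface sialomucin of progenitors. Closest to Siglece were Nfxl1 (0.19), Abca1 (0.19), which encodes the cholesterol exporter, and Marcksl1 (0.19).

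Itgax averaged 12.7 ± 3.97 CPM in TpMo-derived and 108 ± 13.2 CPM in Ly6Chi-derived cells, and Abca1 averaged 69.1 ± 14.1 CPM in TpMo-derived and 15.5 ± 3.69 CPM in Ly6Chi-derived cells (SD, n = 3 each). With 3 libraries in each group this likeness is mostly the difference between the groups. TpMo-derived replicate 2 was the lowest of its group for Siglec1, for Siglece and for the 3 genes nearest to each, and the highest of its group for Cd33, Amz1, Itgax and Cd34. Since the nearest genes were picked by their likeness over these libraries, that shared pattern follows from the choice and adds no support.

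**Figure D5:**
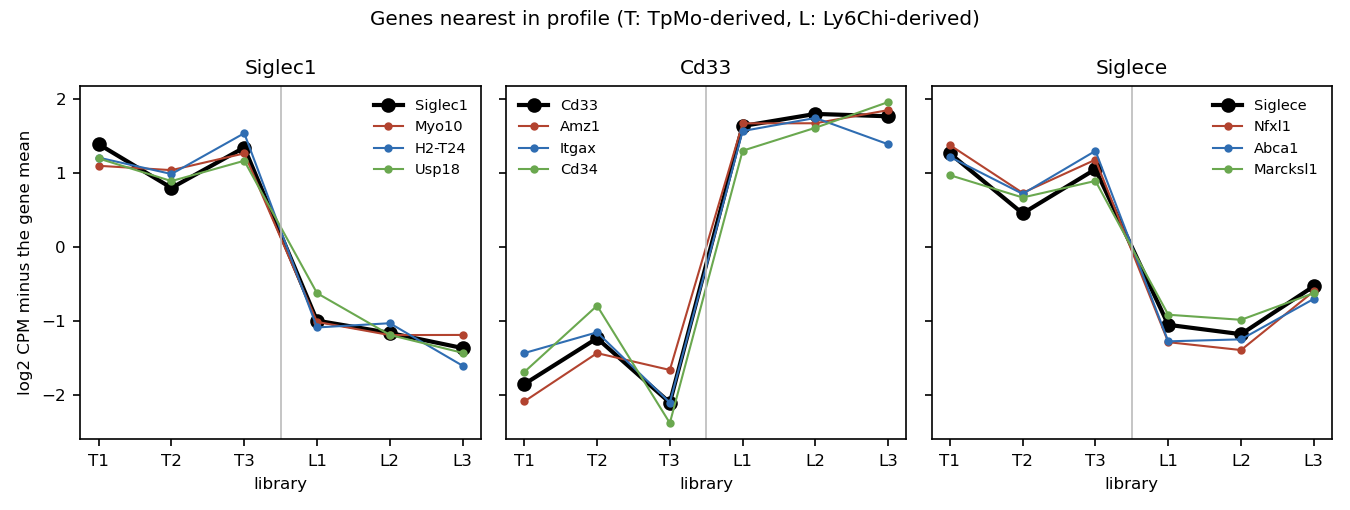
Mean-centred log2 CPM (vertical axis) in each library, TpMo-derived left of Ly6Chi-derived, for Siglec1, Cd33 and Siglece (thick lines) and the 3 genes nearest to each (thin lines). Of the TpMo-derived libraries, replicate 2 lies closest to the Ly6Chi-derived ones for all 3 members.

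Reads from related genes can blur counts in a family of similar receptors. Of the 51-base stretches of each member's transcripts, 1.30% for Siglec1, 0.445% for Cd33, none for Siglece, 0.171% for Siglecf, 4.51% for Siglecg, 0.388% for Siglech and 7.63% for Cd22 occur in transcripts of other genes. Other than Gm29439 at Cd22, which had 0 counts in all libraries, no annotated gene overlaps the span of a member from start to end.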

How the data were processed

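The data are bulk RNA-seq libraries of cultured mouse macrophages, made from 2 ng of total RNA with SMART-seq v2 and read as pairs of 51 cycles. The authors deposited whole-number counts per gene, made with featureCounts 1.6.3 on the GENCODE M22 annotation, per the file headers; STAR and GRCm38 are named in the submitters' processing notes, with no STAR version. The length column deposited with the counts (another unit, bases of merged exon) was used for CPM/kb. Symbols came from GENCODE M21, which matched 55394 of the 55487 identifiers.

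The members and lists were chosen with earlier results of these data known. Counts were filtered with filterByExpr (minimum count 10, total 15), scaled by TMM and tested with edgeR 4.0.16 (R 4.3.3; robust quasi-likelihood fit, no covariate), with Benjamini-Hochberg adjustment over 13140 genes. Log2 fold changes are TpMo-derived over Ly6Chi-derived, and the SE is the absolute log2 fold change divided by the square root of F. In simulated data with known changes, 97 of 100 genes changed 4-fold and 16 of 100 changed 2-fold were called, with 8 false calls. Every simulated gene had the same set spread, which was not taken from these libraries. The shares recovered therefore do not measure which changes could be detected in these data.

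All 7 members were named. Of the lists, 3 genes are counted but not reported here. Of each list, up to 4 called genes with the smallest p and the 2 with the highest level were named, along with called neighbours within 200 kb and the 3 genes most like each called member (prior count 2, at least 5 CPM). Alternatives were other scalings, other filters, DESeq2 1.42.0, limma 3.58.1 (voom), a 1.5-fold threshold test, a fit that was not robust and leaving out each library.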

Additional observations from a re-analysis of the deposited data

How the results depend on the processing

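Siglec1, Cd33 and Siglece kept their direction and their call under all 15 alternatives, with log2 fold changes of 2.26 to 2.53 (highest adjusted p = 0.000658), -3.72 to -3.26 (0.000350) and 1.68 to 2.09 (0.0217). Leaving out each library gave 2.26 to 2.53 for Siglec1, -3.72 to -3.26 for Cd33, 1.68 to 2.09 for Siglece, -2.25 to -0.45 for Siglecf and 0.04 to 0.95 for Cd22, the last 2 never called. Over all genes, 1620 were called, 859 higher and 761 lower, while 317 were called, 191 higher and 126 lower, when the change had to exceed 1.5-fold. DESeq2 called 2383, 1207 higher and 1176 lower. Leaving out each library gave 976 to 1492 calls, 531 to 750 higher and 445 to 742 lower, with fewer libraries in the fit. The 12 calls in the pathway lists became 1 under the 1.5-fold test and 6 to 10 without single libraries. Inpp5d, never called, ranged from -0.064 to 0.029 when single libraries were left out, its sign turning with replicate 2 of the TpMo-derived group (0.0080) or replicate 3 of the Ly6Chi-derived group (0.029) out. With the length of the longest coding transcript, chosen after seeing the data, the share of Cd33 in Ly6Chi-derived libraries was 55.9% and that of Siglece in TpMo-derived libraries 31.0%. Scaling by library size alone moved the median log2 fold change of all genes to -0.04, with 737 called higher and 902 lower. No paired analysis was possible because the labels give no replicate numbers. Depth limits Siglecg, Siglech and Siglec15.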
